A study of Rattus norvegicus with 10 samples.

Results

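The 7 genes described here, Wfs1, Fibcd1, Pou3f1, Mpped1, Dcn, Nov and Lefty1, are known markers of the pyramidal cells of hippocampal field CA1. They were taken by symbol from the 17168 genes counted in each library, and 6 of the 7 had enough reads to be tested. Gene expression was measured by RNA sequencing in the left hippocampi of 10 TgF344-AD males at 11 months of age, a strain that carries human disease transgenes under the mouse prion promoter and is used as a model of Alzheimer's disease. The untreated group was 5 transgenic rats on plain rodent chow. The RG2833 group was 5 rats of the same genotype whose chow held 750 mg per kg of RG2833, which inhibits the class I histone deacetylases HDAC1 and HDAC3, from 5 months of age for 6 months. All 10 rats carried the transgenes, and each library is 1 rat. No wild-type animal and no female is among the samples analysed here. The design text names ibudilast in its sentence on timing, whereas the title and every treatment label name RG2833.

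CA1 is the output field of the hippocampal trisynaptic loop. Its pyramidal cells receive Schaffer collaterals from CA3 and project to the subiculum and the cortex, and the field is among the first to lose neurons in Alzheimer's disease. CA1 cells differ along the long axis of the hippocampus: Wfs1 is known to mark mainly the dorsal part, and Dcn the ventral part. Most of these markers are also made elsewhere in the brain. Wfs1 is known in striatal and upper-layer cortical neurons, Mpped1 in neocortical neurons, Pou3f1 in neocortical neurons and glia that form myelin, and Dcn above all in fibroblasts of the meninges and vessels. The measurements are on whole tissue, so fewer CA1 cells in a sample and less RNA per cell cannot be told apart.

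The libraries had 15118203 to 18533520 expected counts, which are RSEM's estimates of the reads of each gene. Levels are given as CPM, the count of a gene as a share of the library's total after TMM scaling, which evens out differences in composition between libraries. Several libraries stood apart in their cellular makeup. The summed CPM of 8 choroid plexus genes was 7762 in untreated replicate 2 and 9103 in RG2833 replicate 1, against 12.9 to 278 in the other 8 libraries. The same 2 libraries had the highest sums of 8 fibroblast genes, 1260 and 769 CPM, against 59.5 to 145 CPM elsewhere. Igf2 had the largest mean of these 8 genes in both groups, 183 CPM in untreated and 156 CPM in RG2833 libraries. The sums therefore lean on Igf2. By mean log2 CPM, which weighs the 8 genes alike, the list stood 2.87 and 1.03 above its mean of the 10 libraries. Untreated replicate 3 was the lowest untreated library for the CA3 and CA2 list and for the dentate granule list. Together with RG2833 replicates 4 and 5 it had the 3 highest sums of 7 neocortical genes, 301 to 320.5 CPM against 219 to 275 CPM in the other 7 libraries.

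Promoter sequences are shown for the 3 members found in the RefSeq promoter table of the GRCr8 assembly, Wfs1, Fibcd1 and Mpped1, whose levels by library are set side by side in the plots of pairs. Galnt9, the gene whose levels were most like those of Fibcd1, is set beside them. Each stretch runs 5′ to 3′ from 250 bases before to 50 bases after the annotated start. Capitals mark GC boxes, GGGCGG or its reverse complement CCGCCC.
Wfs1 promoter (chr14:78034955-78035254, plus strand): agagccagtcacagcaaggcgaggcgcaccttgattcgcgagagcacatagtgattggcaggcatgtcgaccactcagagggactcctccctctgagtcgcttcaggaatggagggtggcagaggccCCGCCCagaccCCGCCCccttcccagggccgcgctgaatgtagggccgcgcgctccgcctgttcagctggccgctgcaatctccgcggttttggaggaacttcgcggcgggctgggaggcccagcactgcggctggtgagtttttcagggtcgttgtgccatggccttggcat
Fibcd1 promoter (chr3:35524093-35524392, minus strand): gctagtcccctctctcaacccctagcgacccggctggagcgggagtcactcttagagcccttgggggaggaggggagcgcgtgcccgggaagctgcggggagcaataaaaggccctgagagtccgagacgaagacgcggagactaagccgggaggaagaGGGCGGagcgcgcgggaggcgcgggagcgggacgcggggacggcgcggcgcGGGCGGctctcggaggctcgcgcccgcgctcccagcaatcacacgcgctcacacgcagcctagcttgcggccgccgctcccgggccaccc
Galnt9 promoter (chr12:51788281-51788580, minus strand): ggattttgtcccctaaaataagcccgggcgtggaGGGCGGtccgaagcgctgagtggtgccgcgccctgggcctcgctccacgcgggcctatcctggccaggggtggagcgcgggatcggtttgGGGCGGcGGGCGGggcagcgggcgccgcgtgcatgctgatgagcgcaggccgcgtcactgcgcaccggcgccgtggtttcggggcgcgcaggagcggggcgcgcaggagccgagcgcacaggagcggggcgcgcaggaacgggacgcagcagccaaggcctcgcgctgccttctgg
Mpped1 promoter (chr7:116824504-116824803, plus strand): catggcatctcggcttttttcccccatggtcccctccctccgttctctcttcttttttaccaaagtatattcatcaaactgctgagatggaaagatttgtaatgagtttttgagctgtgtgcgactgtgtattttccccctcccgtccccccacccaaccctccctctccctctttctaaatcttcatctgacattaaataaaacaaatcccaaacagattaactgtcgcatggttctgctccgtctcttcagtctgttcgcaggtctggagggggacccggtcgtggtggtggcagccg

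The Fibcd1 and Galnt9 stretches were rich in G and C, with 72.7% and 74.3% of bases and 39 and 42 CpG dinucleotides. That of Wfs1 had 64.7% and 22 CpG, and that of Mpped1 had 49.3% and 10 CpG, close to the median of 51.7% and above the median of 7 CpG over all 33469 stretches in the table. GC boxes were found 2 times in Wfs1, 2 times in Fibcd1, 3 times in Galnt9 and 0 times in Mpped1, and 33.1% of all stretches held at least 1. The octamer ATGCAAAT, or ATTTGCAT on the other strand, is bound by POU factors such as the Pou3f1 protein. It was found in 0 of these 4 stretches and in 1.78% of all stretches. The TATA box TATAAA was found in 0 of the 4, and in 14.2% of all. These matches are descriptions of letters in a 300-base window.

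Wfs1 encodes wolframin, a membrane protein of the endoplasmic reticulum whose loss causes Wolfram syndrome. In untreated replicates 1 to 5 it stood at 139.9, 152, 298, 135 and 390.3 CPM, and in RG2833 replicates 1 to 5 at 319.6, 236, 283, 164 and 198 CPM. The untreated libraries fell into 3 low and 2 high values, and all 5 RG2833 libraries lay inside the untreated range and above the untreated median. The untreated mean was 223 ± 115 CPM and the RG2833 mean 240.1 ± 62.8 CPM (SD, n = 5 each). The log2 fold change of RG2833 over untreated was 0.11 (SE 0.32; edgeR quasi-likelihood adjusted p = 0.983), and the difference of mean log2 CPM was 0.21 (two-sided exact permutation p = 0.571). Leaving out untreated replicate 1, 2 or 4 or RG2833 replicate 1 turned its sign, with values from -0.028 to -0.0040.

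Fibcd1 encodes a transmembrane receptor that binds acetylated sugars. Its levels were 216, 146, 35.5, 82.3 and 297 CPM in untreated replicates 1 to 5, and 266, 303, 259, 123 and 129 CPM in RG2833 replicates 1 to 5. The lowest value, in untreated replicate 3, was 594 counts, and the highest, in RG2833 replicate 2, was 5343 counts. The highest library was 8.56 times the lowest, the widest range among the 6 tested genes, and it was 3.68 times without untreated replicate 3. The groups overlapped. The untreated mean was 155 ± 104 CPM and the RG2833 mean 216 ± 83.9 CPM (SD, n = 5 each), and 3 of 5 RG2833 libraries lay above the untreated mean. The log2 fold change was 0.48 (SE 0.49; edgeR adjusted p = 0.923), and the difference of mean log2 CPM was 0.72 (exact permutation p = 0.270). Without untreated replicate 3 the fitted value was 0.22, and without untreated replicate 5 it was 0.85.

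Pou3f1, also called Oct-6 or Scip, is a transcription factor with a POU domain. It stood at 52.9, 52.4, 19.6, 36.8 and 127 CPM in untreated replicates 1 to 5 and at 98.2, 89.9, 89.7, 43.8 and 55.7 CPM in RG2833 replicates 1 to 5. Again untreated replicate 3 was the lowest library, and untreated replicate 5 was the highest. The RG2833 libraries fell into 3 high values, replicates 1 to 3, and 2 low values, replicates 4 and 5, inside the untreated range. Group means were 57.7 ± 40.9 and 75.5 ± 24.1 CPM (SD, n = 5 each). The log2 fold change was 0.39 (SE 0.43; edgeR adjusted p = 0.930), and the difference of mean log2 CPM was 0.59 (exact permutation p = 0.294). Without untreated replicate 5 the log2 fold change was 0.90 (unadjusted p = 0.0209; edgeR adjusted p = 0.999), and without untreated replicate 3 it was 0.17.

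Mpped1 encodes a protein with a metallophosphoesterase domain. It stood at 199.5, 156, 285, 183 and 296 CPM in untreated replicates 1 to 5 and at 286, 294, 271, 327 and 369 CPM in RG2833 replicates 1 to 5. All 5 RG2833 libraries lay above the untreated mean, and the ranges overlapped because untreated replicates 3 and 5 reached the RG2833 values. Group means were 224 ± 63.0 CPM (untreated) and 309.6 ± 39.1 CPM (RG2833; SD, n = 5 each), a ratio of 1.38 in the fit. The log2 fold change was 0.47 (SE 0.18) at an unadjusted p of 0.0241, which did not pass over all genes (edgeR adjusted p = 0.841; exact permutation p = 0.0635). The unadjusted p ran from 0.00622 to 0.0703 over all alternatives, and the log2 fold change from 0.36 to 0.59. It was above 0.05 without untreated replicate 1 (0.0541), untreated replicate 4 (0.0595) or RG2833 replicate 5 (0.0591), and without untreated replicate 2 and RG2833 replicate 1 together (0.0555).

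The summed level of the neocortical list and that of Mpped1 were highest in the same library. RG2833 replicates 5 and 4, the 2 libraries with the most Mpped1, had summed neocortical levels of 320.5 and 301 CPM, and untreated replicate 2, with the least Mpped1, had 219 CPM. Over the 10 libraries the correlation of log2 levels was r = 0.61 (permutation p = 0.0619, adjusted p = 0.313 over 96 gene-by-list relations; rho = 0.46, permutation p = 0.192), which was 0.27 without the 2 libraries farthest from the median of the list, RG2833 replicates 4 and 5. Within groups of 5 it was 0.29 (untreated) and 0.88 (RG2833), given as values only. Untreated replicate 5 went the other way, with 296 CPM of Mpped1 beside 225 CPM of the neocortical list. Of the 7 neocortical genes, 4 were higher and 3 lower in RG2833, where 46.5% of all genes tested were higher. An unadjusted p under 0.05 was reached by 2 of the 7, against 5.66% of all genes tested, Rspo1 with a log2 fold change of 0.60 (SE 0.23) and Rorb with 0.47 (SE 0.21). With the 3 libraries of highest summed neocortical CPM left out, an alternative chosen after seeing the data, the log2 fold change of Mpped1 was 0.44 (edgeR unadjusted p = 0.0703). By mean log2 CPM of the list, the measure of the correlation, untreated replicate 3 stood only 0.054 above the mean of the 10 libraries. RG2833 replicates 4 and 5 stood 0.27 and 0.38 above it. Between Mpped1 and the mean log2 CPM of 8 astrocyte genes r was 0.76, which did not pass after adjustment (permutation p = 0.0102, adjusted p = 0.147; rho = 0.66, permutation p = 0.0436), and it was 0.60 without untreated replicate 2 and RG2833 replicate 4 (exact permutation p = 0.132). For 5 genes of oligodendrocyte precursors r with Mpped1 was 0.63 (permutation p = 0.0437, adjusted p = 0.286; rho = 0.60, permutation p = 0.0742), with 0.54 and 0.99 within groups and 0.48 without untreated replicate 3 and RG2833 replicate 5, and all 5 had higher fitted means in RG2833. The part of neocortical tissue, astrocytes or oligodendrocyte precursors in the Mpped1 difference was not tested beyond these values.

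Dcn encodes decorin, a small leucine-rich proteoglycan of the extracellular matrix that binds collagen. It stood at 12.2, 46.3, 16.7, 10.6 and 8.79 CPM in untreated replicates 1 to 5 and at 32.8, 9.82, 8.31, 17.5 and 21.0 CPM in RG2833 replicates 1 to 5, from 130 to 904 counts. Untreated replicate 2 and RG2833 replicate 1 were the highest of their groups, the same 2 libraries that had the highest choroid plexus and fibroblast sums. Means were 18.9 ± 15.6 and 17.9 ± 9.88 CPM (SD, n = 5 each), with a log2 fold change of -0.084 (SE 0.51; edgeR adjusted p = 0.996; exact permutation p = 0.968). Without untreated replicate 2 the log2 fold change was 0.57, without RG2833 replicate 1 it was -0.42, and without both libraries it was 0.22 (SE 0.31).

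The levels of Dcn were highest in the libraries richest in the fibroblast and choroid plexus lists. Against the mean log2 CPM of Lum, Col1a1, Col1a2, Col3a1, Ogn, Igf2, Slc6a13 and Fmod, r was 0.85 (permutation p = 0.0019, adjusted p = 0.147; rho = 0.60, permutation p = 0.0722). It was 0.98 in untreated and 0.76 in RG2833 libraries, and 0.39 without untreated replicate 2 and RG2833 replicate 1, so the relation rests on those libraries. For the choroid plexus list r with Dcn was nearly as high, 0.79 (permutation p = 0.0107, adjusted p = 0.147; rho = 0.54, permutation p = 0.115), with 0.96 and 0.70 within groups and 0.033 without the same 2 libraries. RG2833 replicate 5 stood apart, with 21.0 CPM of Dcn beside a fibroblast sum of 63.3 CPM. In CPM, not scaled by length, Dcn amounted to 3.67% of the fibroblast sum in untreated replicate 2 and 4.27% in RG2833 replicate 1, against 11.2% to 33.2% in the other 8 libraries. That sum leans on Igf2, the gene of the list with the largest mean, so the percentage is not a share of fibroblast RNA in general. All 8 fibroblast genes had lower fitted means in RG2833, by log2 values from -1.82 to -0.24, where 46.5% of all genes tested were higher. An unadjusted p under 0.05 was reached by 0 of the 8, against 5.66% of all genes tested. Against the ventral hippocampal list of Gpc3, Grp, Trhr and Nr2f2, Dcn had r = -0.11 (permutation p = 0.767, adjusted p = 0.990; rho = -0.13, permutation p = 0.733; r = -0.050 without untreated replicate 1 and RG2833 replicate 4). Within groups the correlation of Dcn with the ventral list was -0.12 and -0.13. Pdgfra and Pdgfrb, the receptors that mark oligodendrocyte precursors and mural cells and that some fibroblasts also make, were not highest there. They stood at 128 and 55.8 CPM in untreated replicate 2 and at 122 and 44.8 CPM in RG2833 replicate 1, inside ranges of 92.8 to 171 and 34.3 to 61.6 CPM over all libraries. How much of the Dcn signal came from CA1 cells was not tested.

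**Figure D1:**
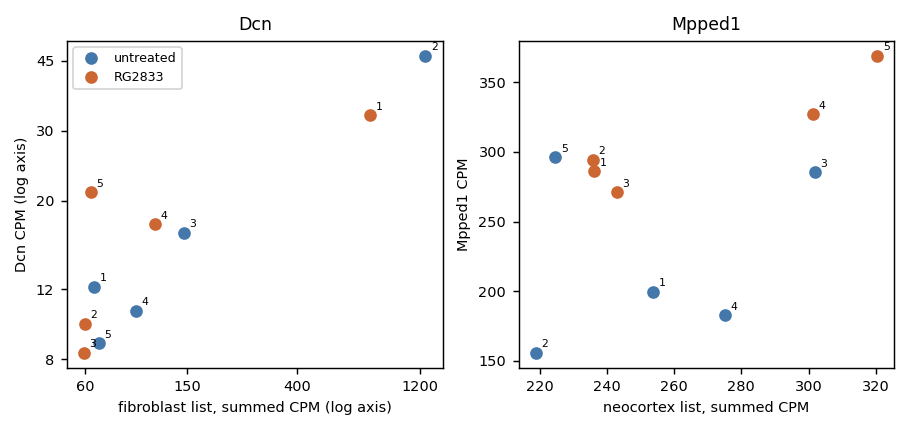
Left, Dcn CPM against the summed CPM of 8 fibroblast genes, both on log axes; right, Mpped1 CPM against the summed CPM of 7 neocortical genes, on linear axes. Each point is 1 rat, numbered by replicate, blue for untreated and orange for RG2833; untreated replicate 2 and RG2833 replicate 1 lie at the upper right of the Dcn panel with fibroblast sums of 1260 and 769 CPM.

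Nov, named Ccn3 in RefSeq, encodes a secreted matricellular protein of the CCN family. In untreated replicates 1 to 5 its levels were 66.6, 53.0, 72.1, 50.2 and 99.8 CPM, and in RG2833 replicates 1 to 5 they were 98.5, 92.6, 60.5, 53.0 and 76.7 CPM. The groups covered nearly the same range, and the highest library was 1.99 times the lowest, the narrowest range of the 6. Means were 68.4 ± 19.8 and 76.3 ± 19.7 CPM (SD, n = 5 each), with a log2 fold change of 0.16 (SE 0.22; edgeR adjusted p = 0.949; exact permutation p = 0.524). It was 0.049 without RG2833 replicate 1, 0.065 without untreated replicate 4, 0.34 without untreated replicate 5, and -0.037 without untreated replicate 2 and RG2833 replicate 1 together.

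Lefty1, a secreted antagonist of Nodal signalling in the TGF-beta family, had very few reads. Its expected counts were 2, 0.98, 1.1, 1 and 1 in untreated replicates 1 to 5 and 0, 0, 2, 0 and 4.37 in RG2833 replicates 1 to 5, in libraries of at least 15118203 counts. It did not reach the minimum for testing, and no fold change is given: a count of 0 allows up to 3 counts in a library, for counting error only. Spink8, a further gene known for CA1, had 0 to 3 counts per library and was not tested either. At these counts a difference between the groups in Lefty1 or Spink8 was not detectable.

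**Figure D2:**
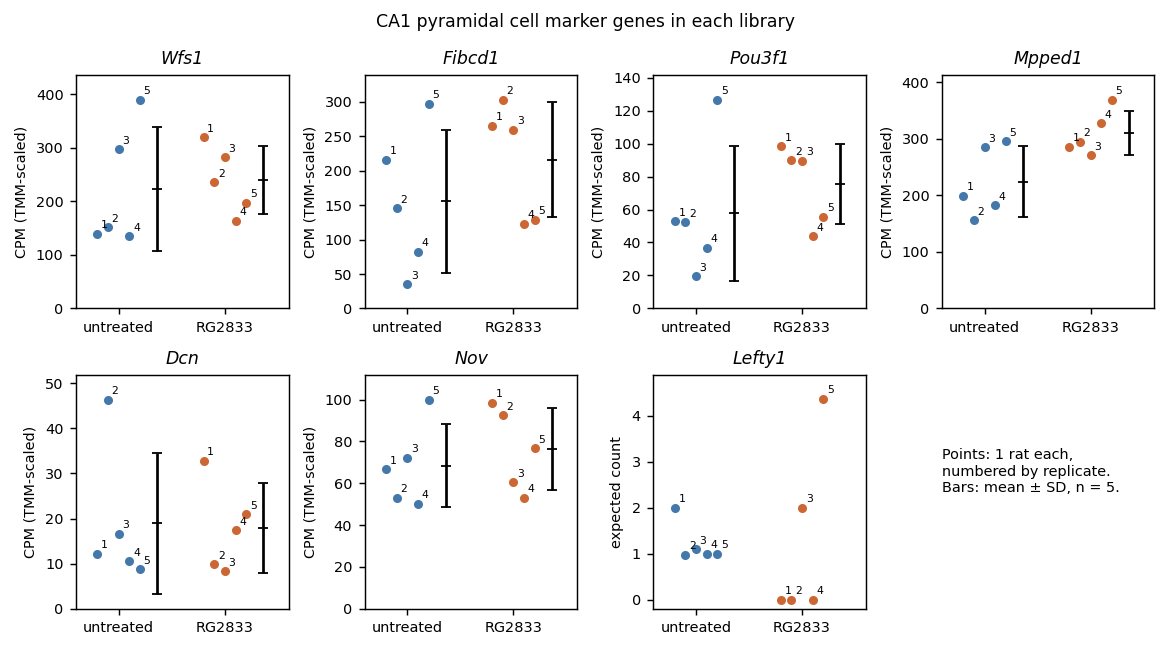
Level of each of the 7 genes in each library, as TMM-scaled CPM for the 6 tested genes and in RSEM expected counts for Lefty1. Points are single rats numbered by replicate, and bars are mean ± SD, n = 5; the groups overlap in every panel, and untreated replicate 3 is the lowest library for Fibcd1 at 35.5 CPM and for Pou3f1 at 19.6 CPM.

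None of the 6 tested genes passed the comparison of RG2833 with untreated. At an edgeR adjusted p under 0.05 there were 0 of 6, and 0 of all 12161 genes tested (0%; smallest adjusted p = 0.841). At an unadjusted p under 0.05 there was 1 of 6, Mpped1, against 688 (5.66%) of all genes tested. By direction these were 1 of 6 higher in RG2833, against 2.94% of all genes, and 0 of 6 lower, against 2.71%; DESeq2 gave the same count among the 6. The groups did not overlap for 0 of 6 genes, against 1% of all genes tested. Fitted log2 fold changes were above 0 for 5 of 6 genes, and for 46.5% of all genes tested. Their median was 0.27, beside -0.011 over all genes tested. This median ranged from 0.16 to 0.50 when single libraries were left out, 0.16 without untreated replicate 4 or RG2833 replicate 1 and 0.50 without untreated replicate 5.

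**Figure D3:**
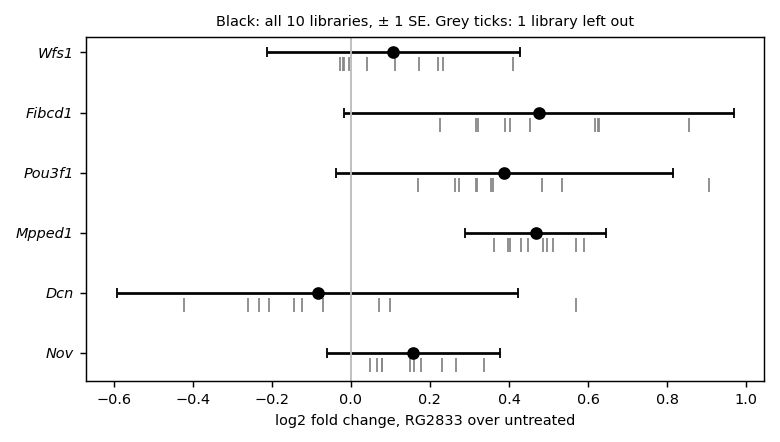
Log2 fold change of RG2833 over untreated for the 6 tested genes. Black points are the fit to all 10 libraries with bars of 1 SE, and grey ticks are the fits that each leave out 1 library; the Mpped1 ticks lie between 0.36 and 0.59, while those of Wfs1 and Dcn fall on both sides of 0.

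Across the 10 libraries the 6 genes form 15 pairs, of which 1 had a correlation of log2 CPM that passed after adjustment over the pairs, Fibcd1 with Pou3f1. The pairs' r ran from -0.21 to 0.95 with a median of 0.25, and 10 of 15 were above 0. The libraries also differ in tissue makeup, as given above, and its part in these correlations was not tested.

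Fibcd1 and Pou3f1 varied together, with r = 0.95 (permutation p = 4e-05, adjusted p = 0.0006; rho = 0.93, permutation p = 0.00033, adjusted p = 0.00495). Within groups of 5 it was 0.94 (untreated) and 0.96 (RG2833), and it was 0.88 without untreated replicates 3 and 4 (exact permutation p = 0.00804). Leaving out any single library gave values between 0.91 and 0.98. Both genes were high in untreated replicate 5 and RG2833 replicates 1 to 3, and low in untreated replicates 3 and 4 and RG2833 replicate 4.

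Wfs1 and Nov came next, with r = 0.76 (permutation p = 0.0157, adjusted p = 0.118; rho = 0.81, permutation p = 0.00694, adjusted p = 0.052). Within groups r was 0.88 and 0.58, and 0.60 without untreated replicates 4 and 5. With all libraries the pair did not pass; without RG2833 replicate 3 its adjusted permutation p was 0.0464.

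Wfs1 departed from Fibcd1 in 1 library. The log2 ratio of Wfs1 to Fibcd1 CPM, which also carries the constant difference in transcript length, was 3.07 in untreated replicate 3 and between -0.63 and 0.72 in the other 9. In that library Wfs1 was the third highest of the 10 samples, while Fibcd1 and Pou3f1 were the lowest. The log2 ratio of Wfs1 to Pou3f1 was likewise 3.93 there and 1.39 to 1.90 elsewhere. The correlation of Wfs1 with Fibcd1 was 0.25 over all libraries (permutation p = 0.505, adjusted p = 0.691; rho = 0.46, permutation p = 0.190; -0.066 without untreated replicates 4 and 5), 0.0029 in untreated and 0.84 in RG2833 libraries, and 0.76 without untreated replicate 3 (adjusted p = 0.0609). Untreated replicate 3 also had the second highest sum of 7 striatal genes, 298 CPM against a highest of 304 CPM in RG2833 replicate 5, and striatal genes had r = -0.10 with Wfs1 over the 10 libraries (permutation p = 0.771, adjusted p = 0.990; rho = -0.055, permutation p = 0.892; -0.30 without untreated replicate 3 and RG2833 replicate 5). Within groups this r was 0.14 and -0.54.

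**Figure D4:**
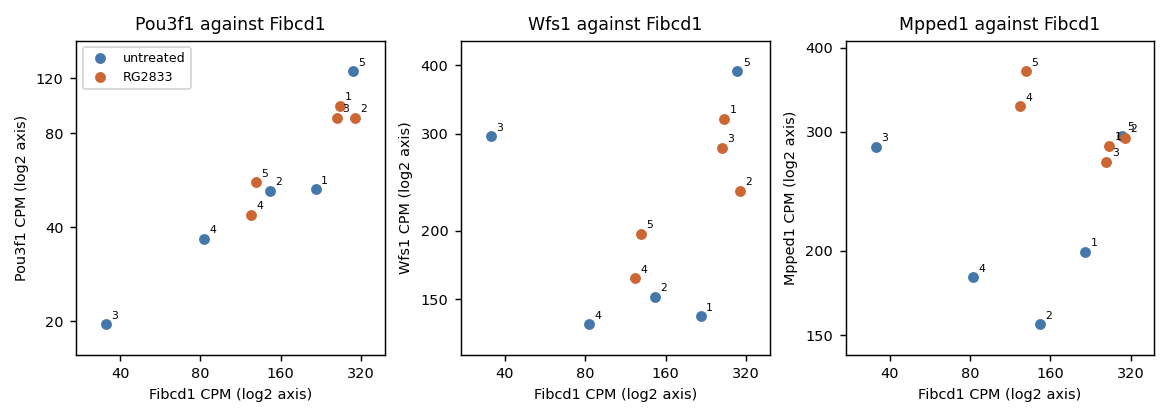
Pou3f1, Wfs1 and Mpped1 CPM against Fibcd1 CPM, all axes on a log2 scale. Each point is 1 rat, numbered by replicate, blue for untreated and orange for RG2833; Pou3f1 lies along a line with Fibcd1 (r = 0.95), whereas untreated replicate 3 lies far to the left in the Wfs1 and Mpped1 panels.

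Mpped1 and Fibcd1 had r = 0.091 over the 10 libraries (permutation p = 0.808, adjusted p = 0.808; rho = 0.18, permutation p = 0.630; 0.016 without untreated replicates 3 and 4). Within groups r was -0.11 in untreated and -0.86 in RG2833 libraries. Mpped1 and Wfs1 had r = 0.56 (permutation p = 0.0935, adjusted p = 0.33; rho = 0.47, permutation p = 0.179; 0.47 without untreated replicates 4 and 5), made of 0.91 in untreated and -0.76 in RG2833 libraries. RG2833 replicates 4 and 5, which had the most Mpped1, had the least Wfs1 and Fibcd1 of their group.

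Fibcd1 was also set against the marker lists, and the relations with an unadjusted permutation p under 0.05 by Pearson's r are given here beside that of the further CA1 genes. The mean log2 CPM of the pyramidal neuron genes Neurod6, Slc17a7, Camk2a, Nrgn and Bhlhe22 had r = 0.84 with Fibcd1 (permutation p = 0.00413, adjusted p = 0.147; rho = 0.81, permutation p = 0.0076), 0.92 and 0.96 within groups and 0.66 without untreated replicate 3 and RG2833 replicate 5. For the CA3 and CA2 list r was 0.78 (permutation p = 0.00976, adjusted p = 0.147; rho = 0.71, permutation p = 0.0271), and 0.57 without the same 2 libraries. For 6 further CA1-enriched genes r was -0.54 (permutation p = 0.107, adjusted p = 0.427; rho = -0.58, permutation p = 0.0876), and -0.79 without untreated replicate 2 and RG2833 replicate 5. The differences between these correlations were not tested. For the striatal list r with Fibcd1 was -0.77 (permutation p = 0.00704, adjusted p = 0.147; rho = -0.79, permutation p = 0.00837), -0.94 and -0.91 within groups and -0.77 without untreated replicate 3 and RG2833 replicate 5. For the microglia list it was -0.72 (permutation p = 0.0184, adjusted p = 0.208; rho = -0.50, permutation p = 0.142) and -0.23 without the same 2 libraries. For endothelium and mural cells it was -0.71 (permutation p = 0.0195, adjusted p = 0.208; rho = -0.54, permutation p = 0.111) and -0.45 without them. The thalamic list had -0.65 (permutation p = 0.0405, adjusted p = 0.286; rho = -0.67, permutation p = 0.0388) and -0.77 without untreated replicates 2 and 4. The dentate list had 0.73 (permutation p = 0.0309, adjusted p = 0.27; rho = 0.30, permutation p = 0.406) and 0.40 without untreated replicates 2 and 3. Pou3f1 had the same signs with the pyramidal (r = 0.77, permutation p = 0.00848, adjusted p = 0.147) and CA3 and CA2 lists (r = 0.69, permutation p = 0.027, adjusted p = 0.26). The same held for the microglia (r = -0.66, permutation p = 0.0351, adjusted p = 0.281) and striatal lists (r = -0.64, permutation p = 0.0447, adjusted p = 0.286). Without untreated replicate 3 and RG2833 replicate 5 these r were 0.60, 0.50, -0.27 and -0.56. Over the 96 relations of 6 genes with 16 lists, 0 passed after adjustment, and 15 had an unadjusted permutation p under 0.05 by Pearson's r.

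**Figure D5:**
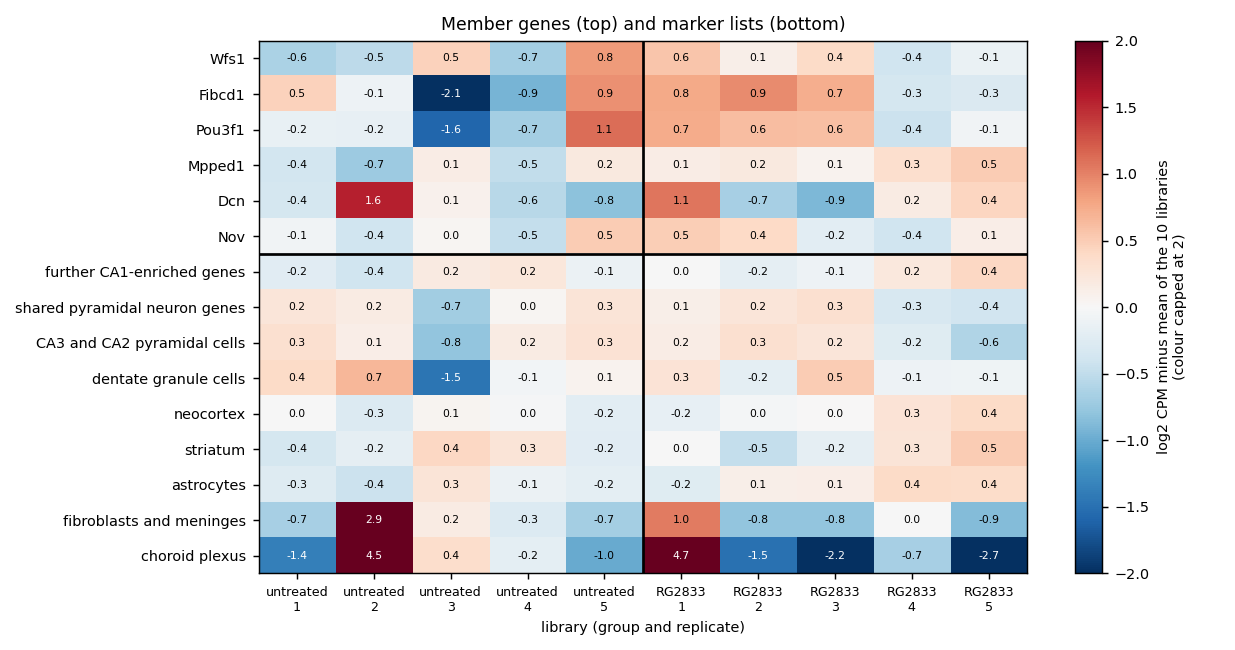
Log2 CPM of the 6 tested genes and mean log2 CPM of 9 marker lists in each library, as the difference from the mean of the 10 libraries, with colour capped at 2. Untreated replicate 3 shows -2.1 for Fibcd1 and -1.6 for Pou3f1 beside 0.5 for Wfs1, and Dcn is highest in the 2 libraries where the choroid plexus list is at 4.5 and 4.7.

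Of 8 further genes known as enriched in CA1, 7 were in the tables and 6 were tested. None passed: 4 were higher and 2 lower in RG2833, 0 had an unadjusted p under 0.05, and the median log2 fold change was 0.026. Of all genes tested, 46.5% were higher and 5.66% had an unadjusted p under 0.05. The highest was Pex5l, which encodes a partner of HCN channels, with a mean of 71.0 CPM without and 84.8 CPM with treatment and a log2 fold change of 0.25 (SE 0.14; adjusted p = 0.841 in edgeR). The lowest was Man1a1, a Golgi mannosidase, with means of 35.7 and 34.6 CPM and a log2 fold change of -0.045 (SE 0.17; adjusted p = 0.988 in edgeR). Htr1a, a serotonin receptor, had its lowest level, 7.16 CPM, in untreated replicate 3, against 15.01 to 28.1 CPM in the other 9 libraries.

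No gene of the ventral hippocampal and shared pyramidal lists passed either. Of 4 ventral genes, 2 were higher and 2 lower, with a median of -0.015. Trhr, the receptor of thyrotropin-releasing hormone, had the highest log2 fold change at 0.27 (SE 0.41) and the glypican Gpc3 the lowest at -0.28 (SE 0.36). Of 5 shared pyramidal genes, 2 were higher and 3 lower, with a median of -0.021. They ran from -0.15 (SE 0.44) for Neurod6, a transcription factor, to 0.12 (SE 0.10) for Camk2a, a kinase of the postsynaptic density. Among the other lists, 3 of 11 tested genes of CA3 and CA2 cells and 1 of 4 of dentate granule cells were higher in RG2833, and all 8 astrocyte genes were higher with a median of 0.32. Of all genes tested, 46.5% were higher. An unadjusted p under 0.05 was reached by 1 of the 8 astrocyte genes and by 0 of the other 2 lists, against 5.66% of all genes tested. Of all genes in the lists, 0 passed at an edgeR adjusted p under 0.05.

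The genes most like each member over the 10 libraries were taken by the highest Pearson correlation of log2 CPM among 11392 genes with a symbol and a mean of at least 1 CPM, and they are descriptions selected from that number. For Fibcd1 these were Galnt9, an enzyme that starts O-linked glycosylation (r = 0.98), and Met, the receptor of hepatocyte growth factor (r = 0.97). Galnt9 stood at 163, 134, 75.9, 124 and 188 CPM in untreated replicates 1 to 5 and at 187, 188, 182, 131 and 146 CPM in RG2833 replicates 1 to 5, and like Fibcd1 it was lowest in untreated replicate 3. For Pou3f1 they were again Met (r = 0.97), which ran from 2.51 CPM in untreated replicate 3 to 10.2 CPM in untreated replicate 5, and Lyzl4, a lysozyme-like gene (r = 0.96). At r of at least 0.9 there were 81 genes for Fibcd1, 27 for Pou3f1, 17 for Mpped1, 74 for Dcn, 2 for Wfs1 and 1 for Nov.

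For Mpped1 the most alike were Zap70, a tyrosine kinase best known from T cells (r = 0.98), and Guk1, guanylate kinase (r = 0.95). Zap70 ran from 2.77 CPM in untreated replicate 2 to 6.51 CPM in RG2833 replicate 4, with a log2 fold change of 0.47 (SE 0.22; edgeR adjusted p = 0.841). Dcn was most like Fstl1, a secreted glycoprotein (r = 0.97), and Cdkn1c, a cell-cycle inhibitor (r = 0.96). Wfs1 had Timm13, a mitochondrial import protein (r = 0.93), and Extl1, a glycosyltransferase of the exostosin family (r = 0.90), which spanned only 52.7 to 62.4 and 42.3 to 55.9 CPM. Nov had Ppapdc2 (r = 0.91) and Nubp2 (r = 0.87).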

How the data were processed

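RNA of the left hippocampus of 10 rats was turned into strand-specific libraries of mRNA (per the labels' protocols). The deposited tables hold RSEM expected counts per gene and a TMM-normalized CPM signal, both by the authors; 100% of the values above 0 of that deposited signal were whole multiples (within 0.01 reads) of 1 step per library. The submitters' processing notes name bcl2fastq 2.17, Bowtie2 2.1.0, RSEM 1.2.15, edgeR and the build rn6; the annotation is not given in the sources used here. Expected counts (11.6% not whole) were rounded and filtered with filterByExpr (minimum count 10, total 15), which left 12161 of 17168 genes (70.8%). They were scaled by TMM and tested with edgeR 4.0.16 in R 4.3.3 (quasi-likelihood F test, robust; Benjamini-Hochberg over all genes tested, threshold 0.05). DESeq2 1.42.0 and limma 3.58.1 (pseudocount 1) were alternatives. CPM printed here come from this scaling and differed from the deposited signal by a median of 1.50%. Log2 CPM used a prior count of 2. Exact permutation tests used all 252 regroupings of 5 and 5 libraries, and correlations 100000 permutations, or every permutation where libraries were left out. The fit was tested on simulated data.

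Members and lists were chosen with earlier results of these data known. Named genes were the 7 members, the extremes of 3 lists of related genes and any of their genes at an unadjusted p under 0.05, the 2 genes most alike to each member and, beside Dcn, Pdgfra and Pdgfrb. Rspo1, Rorb, Htr1a, Spink8 and Igf2 were named after their values were seen. The labels do not say how the rats were housed or bred, so p-values measure the spread between these 10 animals. Other lists covered interneurons, endothelium and mural cells, oligodendrocytes and their precursors, microglia and thalamus; their median log2 fold changes were -0.11, 0.078, -0.13, 0.19, 0.051 and -0.049, and the choroid plexus and striatal medians were 0.16 and 0.046.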

Additional observations from a re-analysis of the deposited data

Results flagged for a closer look

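Among 46 sets of 5 values examined, 8 held 1 library separated from its nearest neighbour by more than 0.71 of the group's range, where chance gives about 2.3. Dcn in untreated replicate 2 reached 46.3 CPM while the remaining untreated values ran from 8.79 to 16.7 CPM, which is a separation of 0.79, and the fibroblast list was high in that library by 0.761. Lefty1 in untreated replicate 1 was high by 0.844 of the range, on 2 counts against about 1 in the others. The ventral hippocampal list was high in untreated replicate 1 by 0.771. In untreated replicate 3 the shared pyramidal list was low by 0.771 and the CA3 and CA2 list by 0.834, and the microglia list was high by 0.782. The choroid plexus list was high in RG2833 replicate 1 by 0.726.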

How the results depend on the processing

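Members called stayed at 0 of 6 under all 20 alternatives, and genes called at 0 under all but DESeq2, which called 7 of all genes and 0 members. Single genes near 0 changed sign. The log2 fold change of Wfs1 came to -0.13 when untreated replicate 2 and RG2833 replicate 1 were both left out, and -0.028 to 0.41 with single libraries left out. It was 0.22 with limma and with the replicate block, and 0.45 without the 3 libraries of highest summed neocortical CPM. For Dcn it was 0.040 with limma on the deposited values, 0.084 with the replicate block, 0.22 without those 2 libraries and -0.42 to 0.57 with single libraries left out. For Nov it was -0.037 without those 2 libraries. Fibcd1, Pou3f1 and Mpped1 were above 0 in all 20. Leaving out single libraries, 0 genes were called, 1 to 2 member pairs were called as correlated (2 without untreated replicate 3 or RG2833 replicate 3), r of Fibcd1 and Mpped1 was -0.066 to 0.29 and r of Wfs1 and Nov 0.68 to 0.85 (0.85 without RG2833 replicate 3). The number of genes at an unadjusted p under 0.05, 688 with all libraries, became 1732 without untreated replicate 3. Leaving out RG2833 replicate 4 gave 375, and leaving out RG2833 replicate 5 gave 424. The whole reads recovered from the deposited values, run after seeing the data, gave 0 genes called and 688 at an unadjusted p under 0.05.

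The replicate numbers are shared by the groups, but same-numbered libraries did not deviate together: correlations ran from -0.49 to -0.034, 0 of 5 pairs were over 0.1, and 0 of 5 libraries correlated best with their own number. With the replicate block, 0 genes were called and 401 had an unadjusted p under 0.05. Counting error was small for the 6 tested genes, at 130 counts or more per library, and Lefty1, at 0 to 4.37 counts, allowed no comparison.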
